A study of Bos taurus with 12 samples.

Results

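The comparison described here is that of intramuscular fat with subcutaneous fat in Holstein steers, measured on an Affymetrix bovine gene expression array. Its samples were those labelled with the breed Holstein, 3 from the intramuscular depot (HS IMF 1 to 3) and 3 from subcutaneous fat (HS SCF 4 to 6), which is 6 of the 12 samples of the series. The remaining 6 samples were the same depots of the breed Japanese Black (JB IMF 1 to 3 and JB SCF 4 to 6), and they entered the fit and served as the second breed. All 4 groups came from steers kept on an energy-rich feeding regimen, so no group shows fat without it. The labels give neither the age of the animals nor whether the intramuscular and subcutaneous samples came from the same steers, nor do they state that each of the 3 samples in a group is a different animal. The p-values therefore measure the spread between these samples, and 3 arrays a group limit the precision of every value.

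Intramuscular fat, the marbling of beef, lies between the fibre bundles of skeletal muscle and is dissected out of it, whereas subcutaneous fat forms a continuous layer under the skin. Both depots are made of adipocytes that take up or synthesise fatty acids and store them as triacylglycerol in a lipid droplet, and in cattle most of that synthesis takes place in fat, from acetate. Between the adipocytes lie blood vessels with their endothelium and smooth muscle, resident macrophages, fibroblasts and nerve, and any of these, like adhering muscle fibres, adds its own transcripts to a bulk sample. In such samples fewer cells of a type and less RNA per cell cannot be told apart.

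Values are the deposited array signals, given in the order of the sample numbers. Differences are intramuscular minus subcutaneous on the log2(signal + 16) scale after quantile normalisation, with a standard error from the residual spread that limma estimated over all 12 samples of both breeds, and the adjusted p is that of limma with Benjamini-Hochberg adjustment over all 16811 probe sets tested. The added 16 keeps noise at very low signals small and makes the differences of genes near 0 smaller than they are. A gene was called where the adjusted p was under 0.05, and the words higher, rose, lower and fell are kept for such calls. Of all 7807 named genes, each read through its brightest probe set, 2.02% were higher and 1.73% lower. The counts of each gene list stand beside these shares.

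FABP4 and CIDEC, adipocyte markers of the labelled tissue, were bright in all 6 samples. Other adipocyte genes, such as ADIPOQ and PPARG described below, had lower signals. FABP4, the fatty acid binding protein of adipocytes, measured 12669.8, 14796 and 15242 in intramuscular fat and 15455, 17308 and 16673 in subcutaneous fat. CIDEC, a protein of the lipid droplet surface, measured 6060.0, 6786 and 4216 against 10523, 11269 and 15018. Neither passed the test between the depots. The Holstein samples were less alike within a depot than the Japanese Black ones: the mean correlation of a sample with the others of its group lay between 0.805 and 0.915 in Holstein and between 0.944 and 0.962 in Japanese Black. HS IMF 3 stood apart, with a median signal of 58.8 against 77.5 to 86.4 in the other Holstein samples and a correlation of 0.824 and 0.785 with HS IMF 1 and 2. HS IMF 1 correlated as closely with HS SCF 5 (0.883) as with HS IMF 2 (0.880). The highest signal was 152036 in HS IMF 3 and 222742 in HS SCF 6, against 15762 to 19084 in the other 10 samples. Tested probe sets above 20000 numbered 4 in HS IMF 3 and 1 in HS SCF 6, the latter being BOLA-DQB1, and none elsewhere. The ratio of the 3′ to the 5′ control probe set was 1.19 to 2.40 for GAPDH and 1.89 to 3.35 for cyclophilin in intramuscular fat, and 1.91 to 4.06 and 2.30 to 2.85 in subcutaneous fat, so that the depots overlapped. It was 1.46 to 4.56 against 15.5 to 131.9 for the actin controls, which the platform annotation assigns to the skeletal muscle actin ACTA1, and its part in the depot differences was not tested. No 2 samples held identical values.

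Of the 16811 probe sets, 304 (1.81%) were higher and 255 (1.52%) lower in Holstein intramuscular fat. The higher ones were far larger in size: 84 of the 304 but 3 of the 255 changed by more than 16-fold on the log2(signal + 16) scale, and the median difference was 2.78 for the higher and −1.48 for the lower probe sets. The higher probe sets named 175 genes, of which 71 belonged to the lists of skeletal muscle genes and 104 did not. The lower ones named 154 genes, none of them in a muscle list. In 1316 probe sets (7.83%) all 3 normalised intramuscular values lay above all 3 subcutaneous ones, and in 2124 (12.6%) all lay below, so that non-overlap alone was more frequent in the downward direction. Over the probe sets as a whole the median difference was −0.08, and −0.32 with the values as deposited, where 235 probe sets were higher and 400 lower (37.0% of the calls higher, against 54.4% after quantile normalisation). Both counts of calls moved with the samples used. Without HS SCF 6 there were 150 higher and 42 lower probe sets, without HS IMF 1 there were 486 and 621, and without HS IMF 2, HS IMF 3, HS SCF 4 and HS SCF 5 there were 464 and 308, 214 and 71, 210 and 182, and 216 and 121. A fit to the 6 Holstein samples alone called 128 higher and 23 lower.

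**Figure D1:**
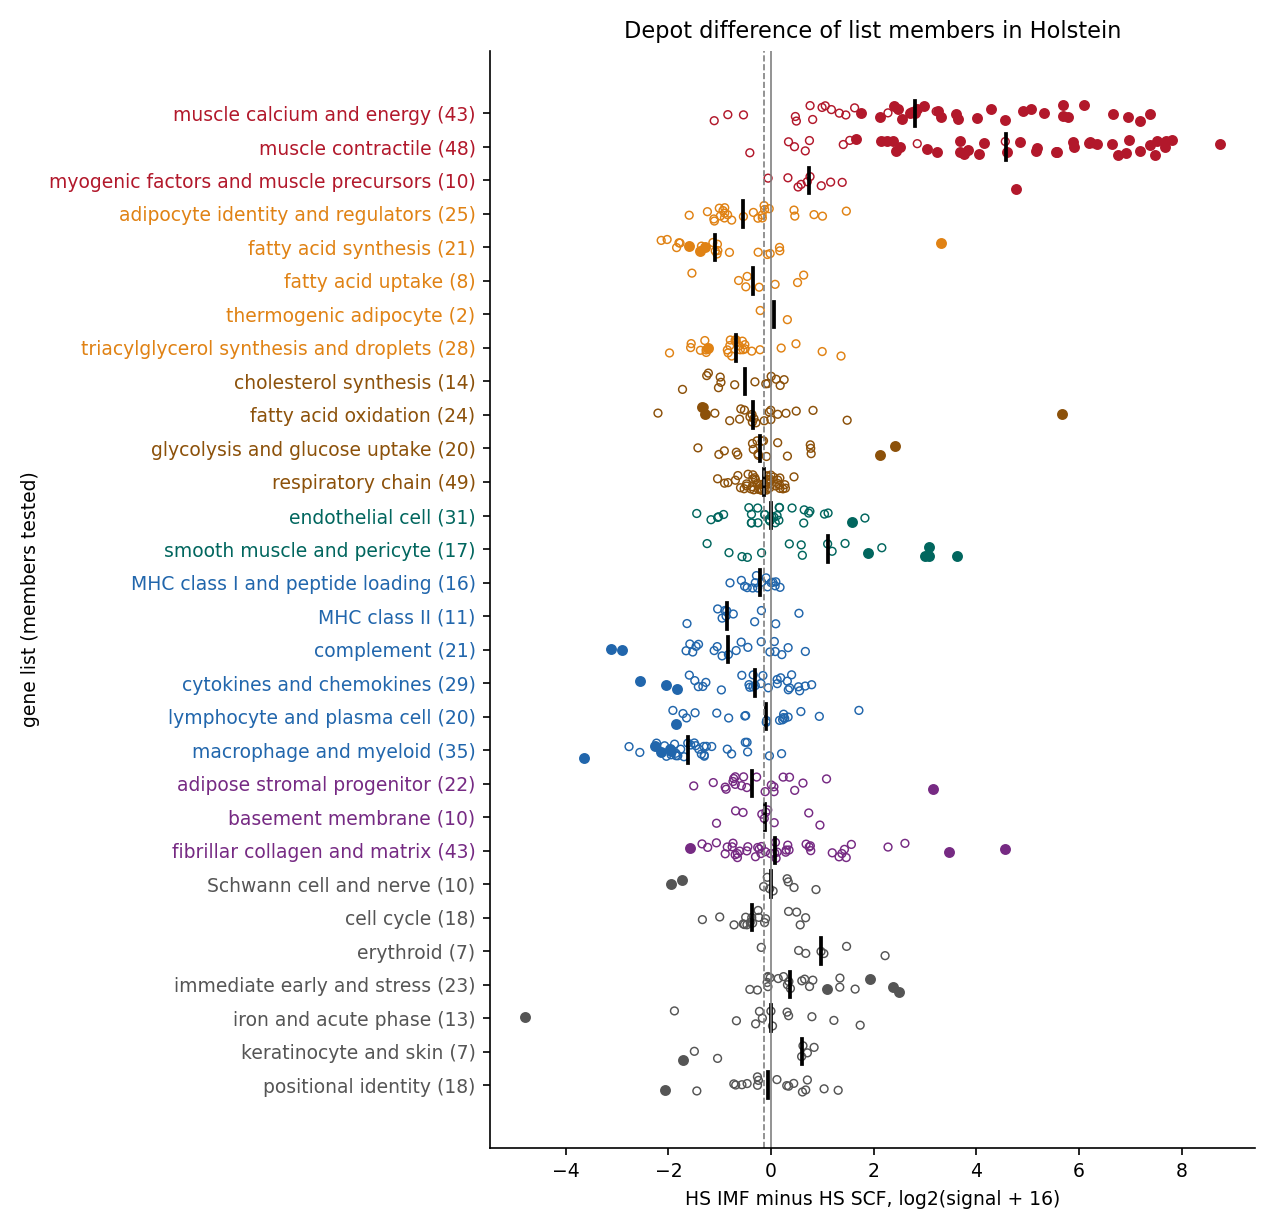
Depot difference in Holstein of every tested member of 30 gene lists, 1 point a gene through its brightest probe set; the x axis is the intramuscular minus subcutaneous difference in log2(signal + 16), filled points passed the test, black bars are list medians and the dashed line is the median of all 7807 named genes (−0.13). The muscle contractile and muscle calcium and energy lists lie far to the right (medians 4.58 and 2.81), the smooth muscle list follows (1.10), and the macrophage list lies furthest to the left (−1.62).

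Sarcomere genes made up the top of the comparison. Through 1 probe set a gene, the brightest, 37 of the 48 contractile genes tested were higher in intramuscular fat and none lower, with a median difference of 4.58, beside 158 higher (2.02%) and 135 lower (1.73%) and a median of −0.13 among all 7807 named genes. The 15 largest increases, each read through the most changed probe set of its gene, were all muscle genes. MYH1, the fast type 2X myosin heavy chain, measured 12658, 4636 and 11131 in intramuscular fat and 0.25, 8.76 and 0 in subcutaneous fat, a difference of 8.91 ± 0.41 (adjusted p = 4.32e-07). Through this probe set the subcutaneous signals of MYH1 were at or near 0, whereas none of the intramuscular ones was below 4636. Its brightest probe set had a signal over 1000 in HS SCF 5 and gave 5.58 ± 1.31 (adjusted p = 0.0406). MYL2, the regulatory light chain of slow fibres, was listed at 0.02, 0.02 and 0.02 in subcutaneous fat and at 9025, 3025 and 10716 in intramuscular fat (8.75 ± 0.84, adjusted p = 0.000107).

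Fast-fibre and slow-fibre proteins rose together. On the fast side, the regulatory light chain MYL11 measured 12679.7, 6329 and 13338 against 50.1, 45.2 and 13.3 (7.83 ± 0.71). The actin cross-linker ACTN3 of fast Z-discs measured 5415, 2687 and 4311 against 5.72, 12.1 and 16.1 (7.39 ± 0.40), and the fast troponin T, TNNT3, 9083, 3776 and 9786 against 22.5, 56.8 and 33.1 (7.20 ± 0.47). On the slow side, the myosin heavy chain MYH7 measured 7565, 2579 and 8138 against 11.9, 32.3 and 4.17 (7.62 ± 0.90), the slow troponin C, TNNC1, 12515, 3371 and 10515 against 44.3, 40.3 and 1.76 (7.71 ± 0.91), and the slow myosin-binding protein MYBPC1 5537, 4012 and 5591 against 11.5, 18.5 and 16.1 (7.52 ± 0.63). The Z-disc proteins MYOT and MYOZ1 (differences of 7.81 and 7.47), the thin filament ruler NEB (7.68), the filament anchor MYPN (6.22) and the filament capping protein TMOD4 (5.89) rose as well. Through the probe sets given here the depots did not overlap for any of these genes, and every one passed with the 6 Holstein samples alone. Second probe sets of MYH7 and MYL11 gave 0.46 and 0.75 and missed the threshold (adjusted p = 0.437 and 0.306). That of TNNC1 rose by 5.90 (adjusted p = 0.0366).

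**Figure D2:**
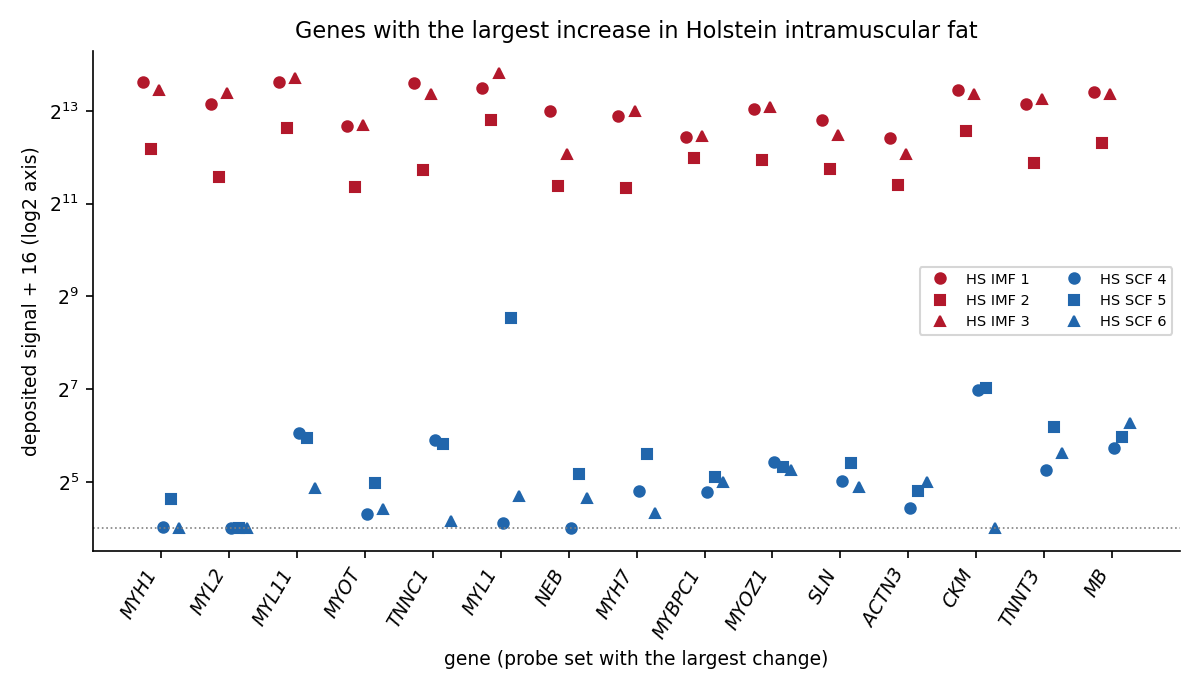
Deposited signal plus 16 (log2 axis) of the 15 genes with the largest increase in Holstein intramuscular fat, each through its most changed probe set, in each of the 6 samples. The dotted line marks a signal of 0. Intramuscular samples (red) lie above subcutaneous samples (blue) for every gene, HS IMF 2 is the lowest red point throughout, and HS SCF 5 stands out for MYL1.

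The muscle signal was not equal across the samples of a depot. Of the 65 contractile, calcium and energy genes that rose, HS IMF 2 had the lowest intramuscular signal in 58 and HS IMF 3 in the remaining 7. The summed signal of the 48 contractile genes was 245233 in HS IMF 1, 113846 in HS IMF 2 and 244346 in HS IMF 3. In subcutaneous fat it was 16026 in HS SCF 4, 43339 in HS SCF 5 and 15630 in HS SCF 6, with at most 1 of the 48 genes listed at exactly 0 in a sample. The subcutaneous sums were thus low but not 0, and that of HS SCF 5 was the highest. They include the second probe sets of MYH7 and MYL11 described below, which did not differ past the threshold between the depots. In 15 of the 48 genes the signal was under 50 in every subcutaneous sample. The sums alone therefore do not show fibre transcripts in HS SCF 4 and 6. A signal over 1000 in HS SCF 5 and under 500 in HS SCF 4 and 6 was seen in 5 contractile genes and 1 energy gene. These were skeletal actin ACTA1 (6.95, 7292 and 26.3 in the subcutaneous samples), TNNC2, MYH1 through its brightest probe set (89.4, 3554 and 18.1), TNNI2, TNNC1 through its brightest probe set, and the glycogen phosphorylase PYGM (10.5, 1724 and 7.85); they were singled out after their values were seen. ACTA1 and TNNC2 missed the threshold, at differences of 6.28 ± 1.78 and 4.56 ± 1.37 (adjusted p = 0.0796 and 0.0923), although their intramuscular signals reached 15114, 11382 and 15380.2 for ACTA1. Other fibre genes such as MYL2, ACTN3 and MYOT were as low in HS SCF 5 as in the other subcutaneous samples, at 3.95, 15.3 and 5.19 for MYOT.

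Calcium handling and energy supply of muscle followed the sarcomere. Of 43 genes tested 28 rose and none fell (median 2.81), beside 2.02% higher and 1.73% lower among all named genes. The calcium pump of fast fibres, ATP2A1, measured 1194, 621 and 912 against 0.23, 5.93 and 7.46 (5.70 ± 0.29, adjusted p = 1.07e-06). Its regulator SLN, sarcolipin, measured 7184, 3409 and 5668 against 16.2, 26.5 and 13.6 (7.39 ± 0.48), and JPH1, which ties the sarcoplasmic reticulum to the surface membrane, 2438, 3163 and 1802 against 66.2, 26.9 and 25.4 (5.79 ± 0.38). The oxygen store myoglobin, MB, measured 10932, 5096 and 10498 against 37.1, 47 and 61 (7.19 ± 0.67), with none of the depots' values overlapping. Glycolytic isoforms of muscle were among the rest, with differences of 4.28 for the phosphofructokinase PFKM, 5.31 for the enolase ENO3 and 6.66 for the phosphoglycerate mutase PGAM2, and ASB12, of a family of ubiquitin ligase adaptors, rose by 4.56. The creatine kinase CKM rose by 7.26 through one probe set, with signals of 11224, 6029.6 and 10474 against 111, 114 and 0.12. In the 6 Holstein samples alone 23 contractile and 19 calcium and energy genes passed, and without HS SCF 6 there were 23 of each. The myogenic transcription factor MYF6, present in mature fibres, measured 1071, 229.5 and 1095 against 12.1, 14.9 and 13.8 (4.76 ± 0.58, adjusted p = 0.000736) and was the only one of 10 myogenic and precursor genes to be called; MYOG, a factor of differentiating myoblasts, measured 78.5, 59.9 and 481 against 66.4, 58.4 and 44.7 (adjusted p = 0.263).

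Several genes were read by more than 1 probe set and these did not always give the same result. A second probe set of MYH7 was bright in both depots, at 3198, 4012 and 2082 in intramuscular and 2898, 3105 and 1923 in subcutaneous fat, and gave 0.46 ± 0.33 (adjusted p = 0.437). Brighter second probe sets of MYL11 and CKM likewise gave 0.75 and 1.06 and missed the threshold (adjusted p = 0.306 and 0.0684). For MYBPC1 and MYH1 the further probe sets that were tested also rose, by 3.67 for MYBPC1 and by 8.28 and 5.58 for MYH1. Other probe sets of MYH1, MYBPC1, MYH7, NEB and ENPP5 were left out as dim and not tested. Which transcripts each probe set reads was not examined.

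Outside the muscle lists, the 15 largest increases included several more genes known from muscle. NMRK2, a nicotinamide riboside kinase of muscle, was listed at 0.01, 0.01 and 0.01 in the subcutaneous samples and at 2092, 626 and 1989 in the intramuscular ones (6.64 ± 0.45, adjusted p = 7.44e-06). UCP3, the mitochondrial uncoupling protein of muscle, measured 646, 1011 and 1143 against 8.55, 7.05 and 1.92 (5.66 ± 0.41), and FBP2, the muscle fructose-bisphosphatase, 1680.0, 398 and 1666 against 8.84, 12.5 and 8.52 (5.58 ± 0.52). UCP3 differs from most muscle genes here in that HS IMF 2 was not the lowest intramuscular sample. PPP1R27, a phosphatase regulatory subunit, SMTNL2, a smoothelin-like protein, and STYXL2, a phosphatase-like protein, rose by 6.60, 5.17 and 4.95, ADCY2, an adenylate cyclase, by 4.45, PEBP4 by 3.79, and DUSP26, a dual specificity phosphatase, by 4.22 with a second probe set at 1.79 (adjusted p = 0.101). ABRA, an actin-binding protein of striated muscle, and the tubulin TUBA4A rose by 4.52 ± 0.80 and 4.14 ± 0.72, and neither passed with the 6 Holstein samples alone (adjusted p = 0.0775 and 0.0733).

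PDE4DIP, or myomegalin, and SYNPO, synaptopodin, were called through some probe sets only. PDE4DIP rose by 4.89 ± 0.52 through one probe set (4095, 948 and 2105 against 71.5, 72.4 and 55.3) and by 1.83 through a second (adjusted p = 0.00962), whereas 3 others gave −0.53, −0.07 and 0.02 (adjusted p = 0.283, 0.932 and 0.975). SYNPO rose by 5.00 ± 0.53 through one and gave 0.57 (adjusted p = 0.377) through the other.

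Vessel genes separated into contractile and endothelial ones. Of 17 smooth muscle and pericyte genes 5 rose and none fell, beside 2.02% higher and 1.73% lower among all named genes. The median was 1.10 (4.58 in the skeletal contractile list). CNN1, the calponin of smooth muscle, measured 4569.9, 3617 and 1176 in intramuscular and 456, 231 and 173 in subcutaneous fat (3.62 ± 0.46, adjusted p = 0.00114). ACTA2, smooth muscle actin, measured 8861, 5989 and 4957 against 1318, 840.2 and 725 (2.99 ± 0.41, adjusted p = 0.00177). TAGLN, an actin-binding protein of the same cells, measured 2731, 5442 and 2024 against 855, 305 and 347 (3.08 ± 0.45, adjusted p = 0.00269). For these 3 genes the depots did not overlap, and within the intramuscular samples HS IMF 3 was the lowest, unlike for most skeletal muscle genes. The smooth muscle myosin MYH11 (3.07 ± 0.60, adjusted p = 0.0181) and smoothelin SMTN (1.88 ± 0.41, adjusted p = 0.0291) also rose, but neither passed with the 6 Holstein samples alone (adjusted p = 0.0818 and 0.108), and both were lost without HS SCF 5 or without HS SCF 6, SMTN also without HS IMF 3 or HS SCF 4 and with the values as deposited. The pericyte markers RGS5 and PDGFRB did not pass, at −0.19 ± 0.85 and −0.82 ± 0.38 (adjusted p = 0.921 and 0.244). The summed signal of the smooth muscle list was 17223 to 42665 in intramuscular and 14546 to 16352 in subcutaneous fat, beside 113846 to 245233 and 15630 to 43339 for skeletal contractile genes, whose part in this difference was not tested.

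Endothelial genes showed no shift of this kind. Of 31 genes 1 rose and none fell, beside 2.02% higher and 1.73% lower among all named genes. The median was 0.01, which became −0.15 with median centring and −0.34 with the values as deposited. Their summed signal was 12832 to 31993 in intramuscular and 21809 to 30852 in subcutaneous fat, the low value being that of HS IMF 3. PECAM1, the adhesion molecule at endothelial cell contacts, measured 2982, 3722 and 1548 against 1962, 4181 and 2571 (0.16 ± 0.37, adjusted p = 0.822), and CDH5, the cadherin of these contacts, 977, 670.0 and 420.4 against 822, 1343 and 1161 (−0.38 ± 0.26, adjusted p = 0.41). The called gene was NOS3, the endothelial nitric oxide synthase, at 116, 166 and 51.7 against 16.1, 33.6 and 39.4 (1.57 ± 0.32, adjusted p = 0.0225), a call that was lost with the values as deposited, with the 6 Holstein samples alone (adjusted p = 0.17) and without any one of the subcutaneous samples. The water channel AQP1 of capillary endothelium measured 3528, 4269 and 1035 against 538, 1280.4 and 1013 and missed the threshold (1.83 ± 0.54, adjusted p = 0.0899).

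**Figure D3:**
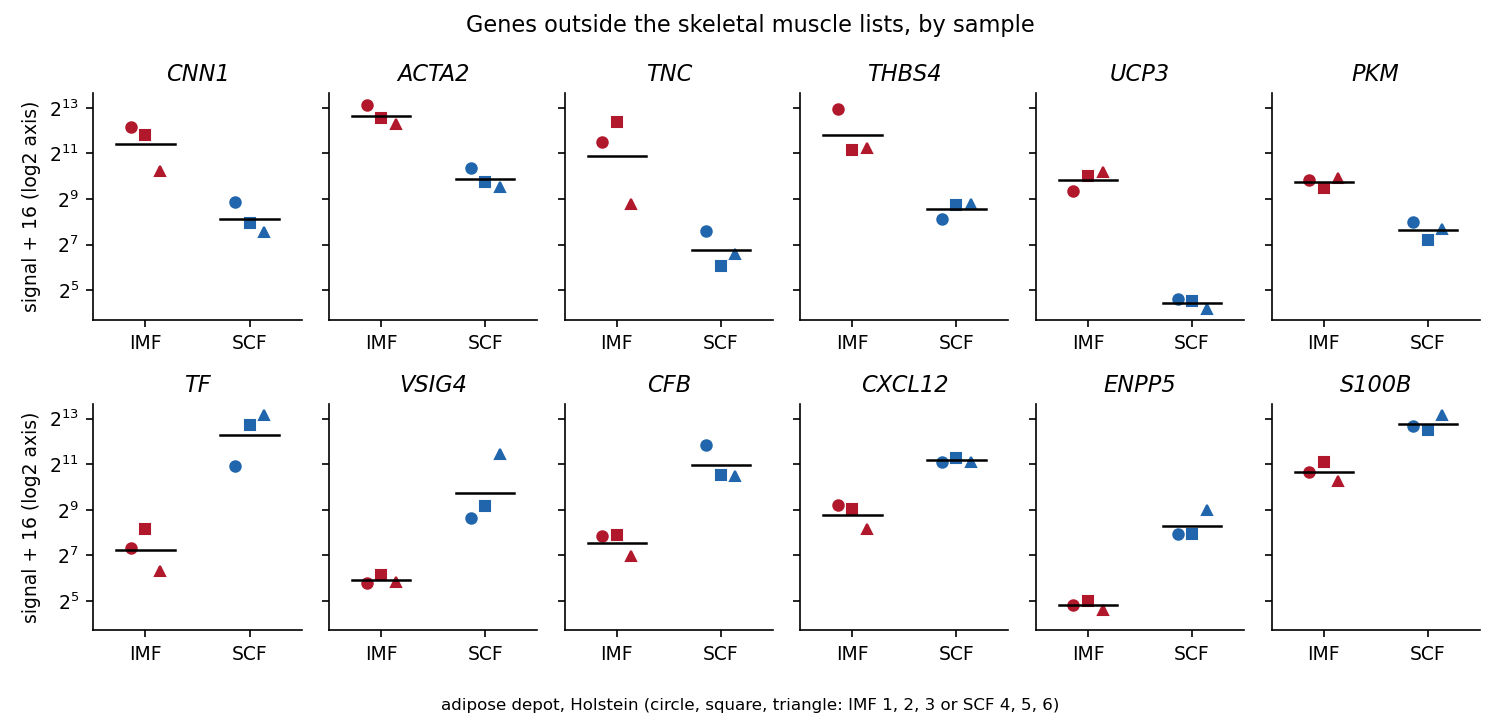
Deposited signal plus 16 (log2 axis) of 12 genes outside the skeletal muscle lists in the Holstein samples, with each depot's mean of log2 values as a bar. The 6 genes of the upper row were higher in intramuscular fat (red) and the 6 of the lower row lower, and in none of the 12 do the samples of the depots overlap.

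Matrix genes rose singly rather than as a list. Of 43 collagen and matrix genes 2 rose and 1 fell, beside 2.02% higher and 1.73% lower among all named genes. The list median was 0.07, and −0.26 with the values as deposited. Tenascin C, TNC, a matrix protein of tendon attachments and remodelling tissue, measured 2844, 5381 and 429 against 175, 51.5 and 79.5 (4.56 ± 0.68, adjusted p = 0.00313), while a second, dimmer probe set gave −0.18 (adjusted p = 0.696). THBS4, a thrombospondin of muscle and tendon, measured 7968, 2289 and 2393 against 262, 412 and 426 (3.47 ± 0.47, adjusted p = 0.00162). The tendon and cartilage protein COMP was bright in HS IMF 1 only, at 1427, 90.3 and 163 against 34.5, 60.1 and 45.2 (adjusted p = 0.102). COL18A1, the collagen of vessel basement membranes, fell by 1.59 on the log2 scale (78.1, 37 and 30.7 against 252, 131 and 181, adjusted p = 0.0366), and passed in 12 of 25 alternatives. None of 10 basement membrane genes was called. Among 22 genes of stromal progenitors DLK1, the preadipocyte factor, rose, at 540.3, 44.1 and 213 against 15.7, 8.23 and 9.35 (3.15 ± 0.69, adjusted p = 0.03), with the lowest intramuscular value again in HS IMF 2. It did not pass with the 6 Holstein samples alone (adjusted p = 0.139), nor without HS IMF 1, HS IMF 3 or any one of the subcutaneous samples. PDGFRA, the receptor that marks these progenitors, measured 959.7, 569 and 233 against 770.3, 1343 and 1141 (adjusted p = 0.205).

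Immediate early and heat shock genes, which respond within minutes to many stimuli, gave a mixed picture. Of 23 genes 4 rose and none fell (median 0.38), beside 2.02% higher and 1.73% lower among all named genes. The chaperone DNAJB1 measured 1671, 838 and 965 against 354, 187 and 181 (2.49 ± 0.37, adjusted p = 0.00334), the stress factor ATF3 2736, 1383 and 1223 against 300.3, 654 and 300.2 (2.37 ± 0.38, adjusted p = 0.00554) and the orphan receptor NR4A1 2626, 2006 and 1159 against 960.2, 536 and 380.1 (1.94 ± 0.34, adjusted p = 0.00907). NR4A1 did not pass with the 6 Holstein samples alone (adjusted p = 0.107). FOSL1 was the fourth (1.09 ± 0.27, adjusted p = 0.0482), and it passed in 2 of 16 alternatives and in 0 of the 7 that left out 1 sample. The most abundant immediate early genes did not pass: FOS measured 6623, 8492 and 4578 against 7848, 8102 and 6700.3 (adjusted p = 0.981) and DUSP1 7571, 7335 and 4702 against 7151, 6300.3 and 6679 (adjusted p = 0.792). Without both HS IMF 3 and HS SCF 5 only 1 gene of the list was called.

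Among the genes lower in intramuscular fat, TF led. TF encodes transferrin, the iron carrier of plasma, and measured 143, 268 and 64.3 in intramuscular and 1921, 6765 and 9054 in subcutaneous fat (−4.80 ± 0.87, adjusted p = 0.0113). The highest intramuscular signal was below the lowest subcutaneous one, and HS SCF 4 was the lowest of its depot. TF passed with the 6 Holstein samples alone (adjusted p = 0.0114) and lost its call without HS IMF 3 or without HS SCF 6. It was the only called gene of 13 iron and acute phase genes, beside 1.73% called lower among all named genes. The ferritin light chain FTL measured 2411, 2399.9 and 1887 against 2502, 3906 and 7655 (adjusted p = 0.22). CATHL5, an antimicrobial cathelicidin peptide of neutrophils, came next in size, at 16.9, 20.4 and 14.8 against 153, 343 and 3952 (−4.10 ± 0.99, adjusted p = 0.0454). HS SCF 6 was far the highest sample. The CATHL5 call passed in 7 of 24 alternatives and in 3 of the 12 that left out 1 sample. ENPP5, an ectonucleotidase family member, measured 12.7, 16.4 and 8.09 against 231, 226 and 490.5 (−3.39 ± 0.32, adjusted p = 0.000104), with a second probe set called as well (adjusted p = 0.000447), and it passed in all 24 alternatives.

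Several of the other large decreases were of enzymes. TDH, threonine dehydrogenase, measured 11.7, 11.9 and 11.4 against 124, 301 and 1277 (−3.71 ± 0.75, adjusted p = 0.0213). GLYAT, which joins glycine to acyl groups, measured 174, 44.1 and 45.6 against 383, 765 and 1426 (−2.97 ± 0.66, adjusted p = 0.0318), and QPRT, an enzyme of NAD synthesis, 471, 339 and 198 against 1403, 2603 and 5125 (−2.64 ± 0.54, adjusted p = 0.0233). In all 3 genes HS SCF 6 was the highest sample. The glutathione transferase GSTT1, the pantetheinase VNN2 and the steroid dehydrogenase HSD17B2 differed by −2.58 ± 0.52, −2.54 ± 0.36 and −2.33 ± 0.55, and the uncharacterised LOC100299281 by −2.69 ± 0.63. VNN2 and QPRT passed with the 6 Holstein samples alone (adjusted p = 0.0243 and 0.0351), whereas TDH, GLYAT, GSTT1, HSD17B2 and LOC100299281 did not (adjusted p = 0.0645, 0.0656, 0.102, 0.159 and 0.14).

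Nearly all macrophage genes had a difference below 0, though few were called singly. Of 35 macrophage and myeloid genes 5 fell and none rose, beside 1.73% called lower among all named genes. In 34 the difference was below 0, beside 4609 of all 7807 named genes. The list median was −1.62, beside −0.13 for all named genes. In 26 of the 35 all 3 normalised intramuscular values lay below all 3 subcutaneous ones, against 15.2% of all named genes. VSIG4, the complement receptor of resident macrophages, measured 39.6, 55 and 40.5 in intramuscular and 382, 555 and 2794 in subcutaneous fat (−3.65 ± 0.65, adjusted p = 0.0104). The 3 chains of the complement starter C1q, made by macrophages, fell together: C1QA measured 720.2, 408 and 593 against 2580.0, 3214 and 3802, C1QB 323, 96.4 and 274 against 1246, 1475 and 1210.0 and C1QC 250.5, 152 and 215 against 1087, 1150.3 and 902. Their adjusted p were 0.0297, 0.0413 and 0.0466, and with the 6 Holstein samples alone 0.0432, 0.126 and 0.0641. C1QA, C1QB and C1QC passed in 17, 12 and 9 of 25 alternatives. CD14, the endotoxin co-receptor, measured 246, 444 and 123 against 1362, 947 and 1412 (−1.97 ± 0.38, adjusted p = 0.0176). Genes that missed the threshold had the same order of depots: CSF1R, the receptor for macrophage growth factor, measured 318, 259 and 209.8 against 1037, 1338 and 841 (−1.62 ± 0.42, adjusted p = 0.0568), and the lysosomal marker CD68 145, 298 and 126 against 375, 847 and 2421 (−1.95 ± 0.66, adjusted p = 0.129).

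The median macrophage difference kept its sign under every alternative run, while the calls moved with the samples used. The summed deposited signal of the list was 6440 to 9583 in intramuscular and 24779 to 42414 in subcutaneous fat. By deposited signal HS SCF 6 was the highest sample in 22 of the 35 genes and HS IMF 3 the lowest in 20. HS IMF 3 was also the sample with the lowest median signal over the array. After normalisation it was not the lowest: the mean log2 value of the list was 7.40, 7.50 and 7.56 in HS IMF 1, 2 and 3. The median stayed between −1.91 and −1.37 over the alternatives. The count of called genes went from 5 to 12 with the values as deposited, to 1 with the 6 Holstein samples alone or without HS SCF 6, to 2 without HS SCF 5, to 3 without HS IMF 3, HS SCF 4, JB IMF 1, JB SCF 5 or JB SCF 6, to 8 without JB IMF 2, and to 0 with array weights or without both HS IMF 3 and HS SCF 5. The contractile sum was 113846 to 245233 against 15630 to 43339 in the same samples, and the part of muscle RNA in the lower macrophage signal was not tested.

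**Figure D4:**
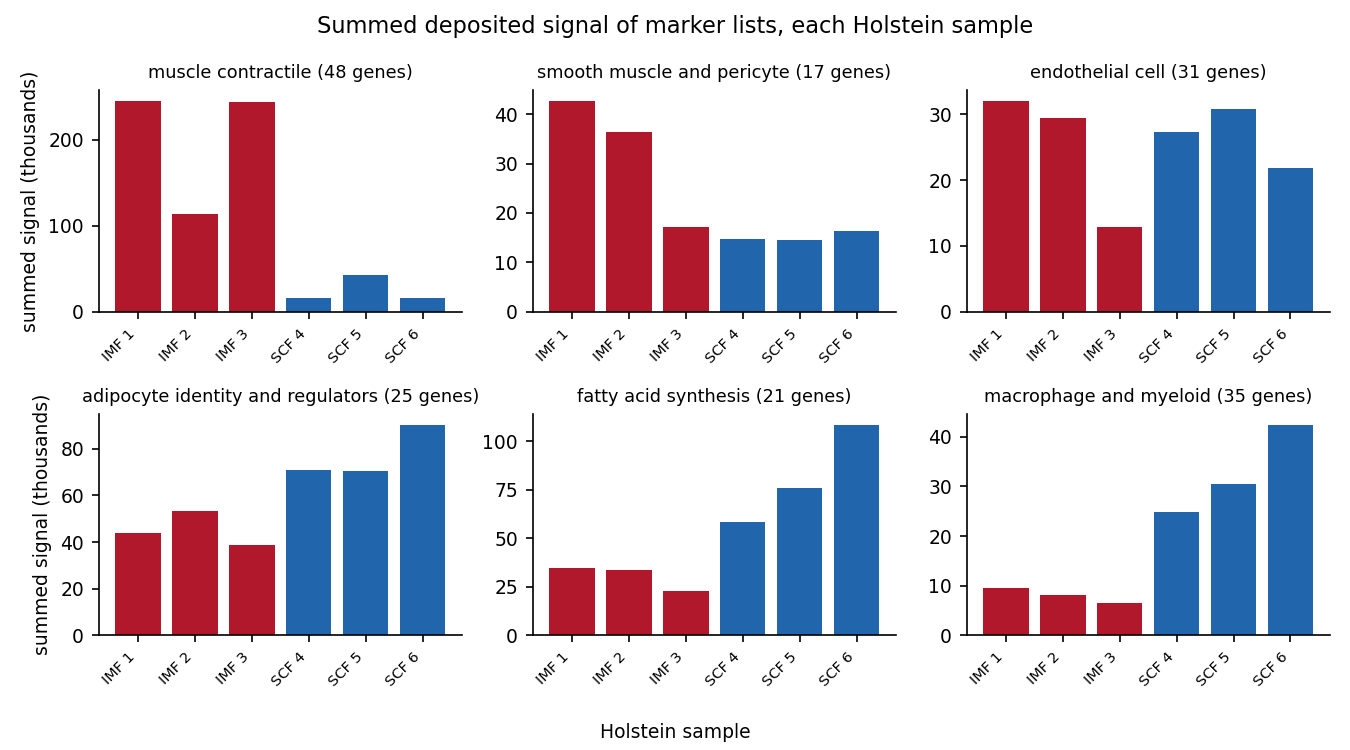
Summed deposited signal (in units of 1000, axis from 0) of 6 marker lists in each Holstein sample. Contractile genes are high in the 3 intramuscular samples (red) with HS IMF 2 the lowest of them, the macrophage sum is at most 9583 in red and at least 24779 in blue bars, and the endothelial sums overlap.

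Complement and chemokine genes included several of the single decreases, beside 1.73% called lower among all named genes. Complement factor B, CFB, of the alternative pathway, measured 214, 223 and 108 against 3680.1, 1458 and 1421 (−3.13 ± 0.61, adjusted p = 0.0176, and 0.0218 with the 6 Holstein samples alone), and without HS IMF 3 or HS SCF 4 the call was lost. Of 21 complement genes the other one called was the lectin FCN1 (−2.90 ± 0.72, adjusted p = 0.0491), which passed in 5 of 23 alternatives; C2, the classical pathway counterpart of factor B, measured 97.2, 65.8 and 79.4 against 312, 269.6 and 307 (adjusted p = 0.0835). CXCL12, the chemokine that retains leukocytes and progenitors, measured 576, 509 and 267 against 2209, 2493 and 2199 (−2.05 ± 0.25, adjusted p = 0.000884). It passed in all 25 alternatives, and its 3 subcutaneous values lay close together. The neutrophil chemokines CXCL3 and GRO1 fell as well, CXCL3 at 19.7, 16 and 21.3 against 60.8, 152 and 169.7 (−1.83 ± 0.31, adjusted p = 0.00753) and GRO1 at 1427, 620.0 and 189 against 2399, 7261 and 4352 (−2.55 ± 0.53, adjusted p = 0.0233), with 3 further GRO1 probe sets at −1.43, −1.91 and −2.32, all called. With the 6 Holstein samples alone neither passed (adjusted p = 0.103 and 0.131). These 3 were the called genes among 29 cytokines and chemokines (median −0.31), a count that was 5 without HS IMF 1 or HS SCF 4, and the macrophage attractant CCL2 measured 1884, 1103 and 1006 against 1234, 729 and 2302 (0.33 ± 0.75, adjusted p = 0.823).

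Few antigen presentation and lymphocyte genes were called. None of 11 MHC class II genes passed (median −0.86); BOLA-DRA measured 3139, 1400.2 and 1539 against 3577, 3966 and 6261 (−0.95 ± 0.45, adjusted p = 0.243). None of 16 class I and peptide loading genes passed either (median −0.22). Of 20 lymphocyte and plasma cell genes 1 fell, the pan-leukocyte membrane protein CD53 (123, 60.6 and 57.1 against 265, 275 and 619.5, −1.85 ± 0.43, adjusted p = 0.0397), which is not limited to lymphocytes. Without HS IMF 1 the list had 5 lower genes and without JB SCF 4 it had 2. It had none without any other single Holstein sample, without JB IMF 1, JB SCF 5 or JB SCF 6, or with the 6 Holstein samples alone. The share called lower among all named genes was 1.73%. The T cell receptor chain CD3E measured 89, 129 and 192 against 199, 129 and 113 (adjusted p = 0.802). CSF2RB, a receptor subunit for myeloid growth factors, was among the largest decreases of all genes (147, 39 and 16.6 against 421, 347 and 246, −2.33 ± 0.49, adjusted p = 0.0257), but not with the 6 Holstein samples alone (adjusted p = 0.141).

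The genes that define adipocytes did not pass the test between the depots, although most pointed down in intramuscular fat. None of 25 adipocyte identity genes was called, beside 2.02% higher and 1.73% lower among all named genes. In 20 of the 25 the difference was below 0, beside 4609 of all 7807 named genes. The list median was −0.54, beside −0.13 for all named genes. The summed signal of the 25 genes was 38736 to 53089 in intramuscular and 70395 to 90304 in subcutaneous fat. Leptin, LEP, the hormone that reports fat stores, measured 877, 1237 and 659 against 1972, 2170.1 and 2127 (−0.91 ± 0.45, adjusted p = 0.265). Adiponectin, ADIPOQ, measured 485, 1632 and 436 against 3484, 936 and 2132 (−1.11 ± 0.77, adjusted p = 0.417), and PPARG, the master regulator of adipogenesis, 281, 1255 and 382 against 2736, 673 and 1214 (−0.99 ± 0.65, adjusted p = 0.388). For leptin the depots did not overlap, and for the other 2 genes they did, with HS IMF 2 near or above HS SCF 5. The droplet protein CIDEA spread widely within subcutaneous fat, at 194, 1364 and 5259 against 175, 296 and 401 in intramuscular fat (adjusted p = 0.381).

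Lipogenic enzymes mostly had differences below 0, and a few of them were called. Of 21 fatty acid synthesis genes 3 fell and 1 rose, with a median of −1.09, beside 1.73% lower, 2.02% higher and a median of −0.13 among all named genes. In 13 all 3 normalised intramuscular values lay below all 3 subcutaneous ones, against 15.2% of all named genes. ACLY, which makes acetyl-CoA from citrate, measured 946, 726 and 273 against 1498, 2255 and 3399 (−1.59 ± 0.36, adjusted p = 0.034). TKT, the transketolase of the pentose phosphate pathway, measured 2932, 2160.3 and 1915 against 5108, 5944 and 10121 (−1.39 ± 0.31, adjusted p = 0.0349), and OXSM, a mitochondrial fatty acid synthase enzyme, fell by 1.29 (adjusted p = 0.0466). ACSS2, which activates the acetate that ruminants use for lipogenesis, measured 2012, 1742 and 817 against 4402, 5748 and 11879 (−2.03 ± 0.62, adjusted p = 0.0997). FASN, the fatty acid synthase, measured 7287, 4657 and 5164 against 9082, 11544 and 11689 (−0.81 ± 0.47, adjusted p = 0.336), and SCD, the stearoyl-CoA desaturase, 8973, 7991 and 7082 against 14860.5, 19084 and 17702 (−1.05 ± 0.32, adjusted p = 0.0923). By deposited signal HS SCF 6 was the highest of the 6 samples in 14 of the 21 genes and HS IMF 3 the lowest in 19. After normalisation the mean log2 value of the list was 9.53, 9.43 and 9.12 in HS IMF 1, 2 and 3. All 3 decreases were lost without HS IMF 3, HS SCF 5, HS SCF 6, JB IMF 1 or JB SCF 4. They were also lost with the 6 Holstein samples alone, with array weights and in the test against 1.2-fold. The list had 1 decrease without HS SCF 4, HS SCF 5, JB SCF 5 or JB SCF 6, which without HS SCF 5 was another gene.

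The one gene of that list that rose was ACACB, at 173, 109.8 and 201 against 0.01, 10.7 and 6.87 (3.32 ± 0.44, adjusted p = 0.00143). ACACB is the acetyl-CoA carboxylase of the mitochondrial surface, found in muscle, where its product holds back fatty acid oxidation, while ACACA, the form that supplies fatty acid synthesis, measured 92.8, 152 and 71.5 against 289.7, 439 and 879 (−1.84 ± 0.56, adjusted p = 0.0977). Triacylglycerol synthesis and droplet genes had 1 of 28 lower, the acyl-CoA synthetase ACSL5 (404, 191 and 131 against 573, 522 and 983, −1.22 ± 0.30, adjusted p = 0.0473), which passed in 7 of 25 alternatives, and a median of −0.69. Among all named genes 1.73% were lower and 2.02% higher, with a median of −0.13. DGAT2, the enzyme of the final step of triacylglycerol synthesis, measured 3789, 5351 and 2616 against 7284, 11236 and 13747 (−1.26 ± 0.48, adjusted p = 0.158). None of 8 fatty acid uptake genes was called; LPL, lipoprotein lipase, measured 6022, 5367 and 2606 against 3980.5, 9836 and 10992 (adjusted p = 0.523). By deposited signal HS IMF 3, the sample with the lowest median signal, was also the lowest of 6 in 22 of the 28 triacylglycerol genes. After normalisation the mean log2 value of that list was 9.64, 9.61 and 9.59 in HS IMF 1, 2 and 3.

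Oxidative and glycolytic metabolism changed in a few genes, beside 2.02% higher and 1.73% lower among all named genes. In glycolysis 2 of 20 rose: pyruvate kinase PKM, at 909.7, 698 and 961 against 239, 132 and 191 (2.41 ± 0.33, adjusted p = 0.0018), and LDHA, the lactate dehydrogenase subunit typical of fast muscle, at 10424, 5342 and 7217 against 2299.9, 2103 and 1443 (2.11 ± 0.30, adjusted p = 0.00201). LDHB, the subunit of oxidative tissue, measured 4446, 6072 and 5428 against 9369, 12609 and 14899 (−1.02 ± 0.32, adjusted p = 0.108). In fatty acid oxidation UCP3 rose, as described, and CPT2 and ECHS1 fell. CPT2, of the mitochondrial inner membrane, measured 249, 252 and 140.0 against 565, 609.8 and 1002 (−1.35 ± 0.27, adjusted p = 0.0198), and ECHS1, the enoyl-CoA hydratase, 3339, 3105 and 2206 against 6593, 6179 and 11086 (−1.29 ± 0.32, adjusted p = 0.0482). Neither passed with the 6 Holstein samples alone (adjusted p = 0.142 and 0.141), CPT2 was lost without HS IMF 3 or HS SCF 6, and ECHS1 passed in 7 of 25 alternatives. None of 49 respiratory chain genes (median −0.15), 14 cholesterol synthesis genes (−0.51) or 18 cell cycle genes (−0.37) was called, nor either of the 2 thermogenic genes tested.

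Nerve and position markers gave a few further decreases, beside 1.73% called lower among all named genes. S100B, a calcium-binding protein known from Schwann cells and also made by adipocytes, measured 1592, 2183 and 1212 against 6604, 5737 and 9254 (−1.95 ± 0.29, adjusted p = 0.0027) and passed in all 25 alternatives. Myelin basic protein, MBP, measured 95.3, 85.1 and 42.7 against 246, 265 and 445 (−1.73 ± 0.28, adjusted p = 0.00575) and missed the threshold only with the 6 Holstein samples alone (adjusted p = 0.098). The other 8 of 10 Schwann cell and nerve genes did not pass, and SOX10, the transcription factor of the lineage, measured 73.7, 73.5 and 104 against 72.5, 79.4 and 86.6 (adjusted p = 0.525). Of 18 homeobox and T-box genes of position MSX1 fell, at 174, 39.6 and 76.8 against 523, 325 and 599 (−2.08 ± 0.43, adjusted p = 0.0237, and 0.14 with the 6 Holstein samples alone), a call lost without HS IMF 3, HS SCF 4 or HS SCF 6. The skin keratin KRT14 measured 55.5, 67.4 and 13.4 against 157, 194 and 185 (−1.71 ± 0.42, adjusted p = 0.0492) and was the only one of 7 keratinocyte genes called, in 8 of 25 alternatives. None of 7 erythroid genes was called; the globin HBB measured 467, 158 and 279 against 564, 157 and 50.7 (adjusted p = 0.407). HS IMF 3 stood apart for the list, with a summed signal of 6234 against 519.8 to 2377 in the other Holstein samples. Most of that came from the globin HBG, which measured 268, 601 and 5171 against 167, 1775 and 16 (2.22 ± 1.59, adjusted p = 0.426), and near-identical globin genes can share its probes.

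The named calls were also examined with each Holstein sample left out. Of the 88 called probe sets described under the naming rule, 24 were muscle genes that rose, 31 were other genes that rose and 33 were genes that fell. Leaving out any one of the 6 Holstein samples ended none of the 24 muscle calls. All 88 were picked by large changes or small p in these same data, so this describes the named genes only. Over the whole lists 37 contractile and 28 calcium and energy genes were called. These counts fell without HS SCF 6, as given above, and to 23 and 19 with the 6 Holstein samples alone. Leaving out 1 Holstein sample ended between 1 and 8 of the 31 other named increases. It ended between 5 and 25 of the 33 decreases, the most without HS SCF 6 (25) and without HS IMF 3 (24). The 7 decreases that held in all 6 of these fits were CXCL12, CXCL3, ENPP5, MBP, S100B, VNN2 and VSIG4. In the 10 lists without a called gene, leaving out 1 sample gave at most 2 calls.

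The same comparison in Japanese Black steers, on separate samples, gave 365 higher (2.17%) and 151 lower (0.898%) probe sets. Of the 304 probe sets higher in Holstein intramuscular fat 300 had the same sign in Japanese Black and 229 were called there, which is 75.3% of the Holstein and 62.7% of the Japanese Black calls. Of the 255 lower ones all 255 had the same sign and 67 were called, 26.3% of the Holstein and 44.4% of the Japanese Black calls. The median difference of the Holstein calls was 2.78 in Holstein and 2.79 in Japanese Black for the higher probe sets, and −1.48 and −0.91 for the lower ones. The Holstein calls were chosen by their Holstein values, which favours larger differences there. Over all 16811 probe sets 70.5% had the same sign in both breeds, with a correlation of 0.78 across probe sets, which are not independent replicates. List medians were close for muscle contractile genes (4.58 in Holstein, 4.67 in Japanese Black) and macrophage genes (−1.62 and −1.85), and were −1.09 and −0.68 for fatty acid synthesis and 1.10 and 1.72 for smooth muscle. In 8 of the 30 lists the medians had opposite signs, among them the immediate early and stress genes (0.38 in Holstein and −0.34 in Japanese Black), erythroid genes (0.97 and −0.08), keratinocyte genes (0.59 and −0.04), cholesterol synthesis (−0.51 and 0.06), collagen and matrix (0.07 and −0.30) and endothelial genes (0.01 and −0.27). These differences between list medians were not tested.

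**Figure D5:**
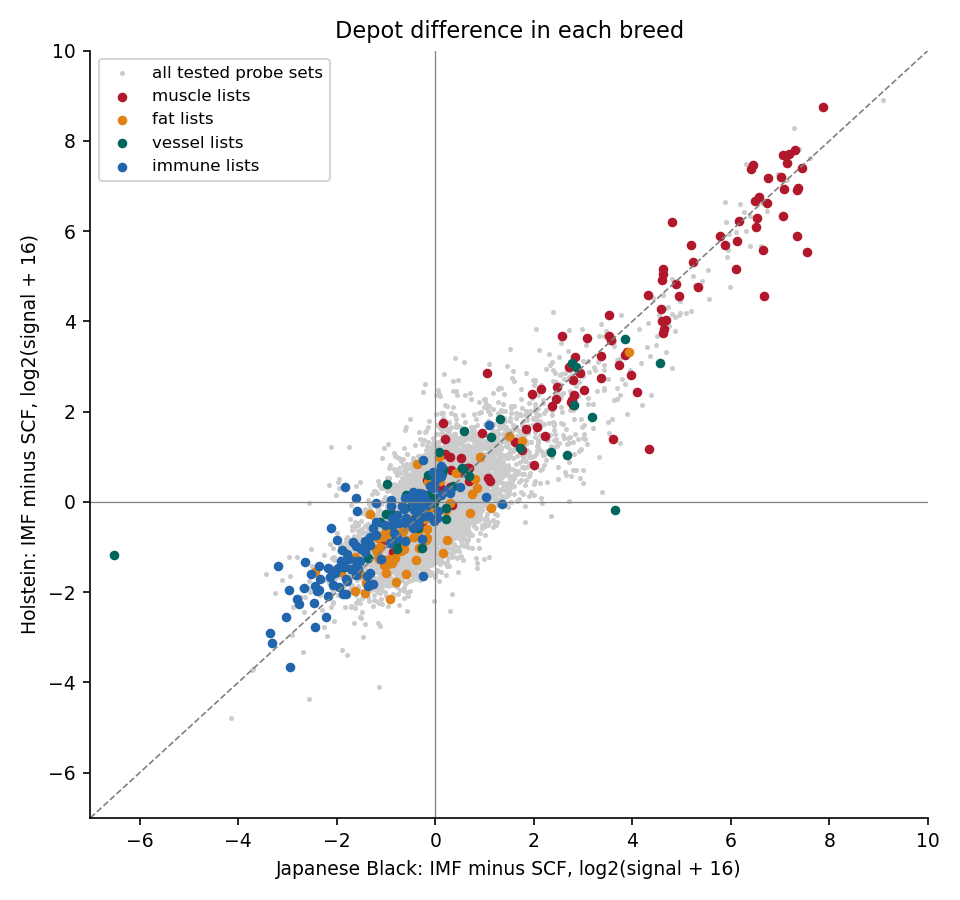
Intramuscular minus subcutaneous difference in log2(signal + 16) of each tested probe set in Japanese Black (x axis) and Holstein (y axis), with the members of the muscle, fat, vessel and immune lists coloured and the line of equal differences dashed. Most muscle genes lie along the line at the upper right, and immune genes reach from near the centre to the lower left. The immune list medians were −0.09 in Holstein and −0.30 in Japanese Black for lymphocyte genes, and −1.62 and −1.85 for macrophage genes. The vessel gene far to the left is SELE (−6.51 in Japanese Black and −1.17 in Holstein).

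The difference between the breeds in the depot difference was tested for every probe set. None passed (0 of 16811, 0%) with limma, where 358 had an unadjusted p under 0.05, and the smallest adjusted p was 0.402. That probe set was one of PDE4DIP, at 45.1, 45.4 and 45.3 in intramuscular and 51.8, 43.9 and 55.1 in subcutaneous fat of Holstein, and 361, 356 and 817 and 54.4, 54.1 and 59.6 in Japanese Black; the difference of differences was −2.69, with a 95% interval from −3.58 to −1.81. For the leading Holstein genes the intervals were wide: −3.33 to 2.01 for TF, −1.45 to 1.08 for MYH1, −1.65 to 1.19 for CNN1 and −2.59 to −0.60 for ENPP5 (adjusted p = 0.99). SLC16A3, the lactate exporter of glycolytic muscle, was called in Holstein, at 312, 159 and 136 against 89.7, 54.7 and 38.9 (1.76 ± 0.30, adjusted p = 0.00783), and differed by 0.15 in Japanese Black, and its difference of differences of 1.60 (0.68 to 2.53) did not pass (adjusted p = 0.99). ADAM19, a membrane protease, and the membrane protein AMIGO2 were also among the smallest p of this test, at 1.24 and −2.18 (adjusted p = 0.99 and 0.99).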

How the data were processed

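Total RNA of 12 fat samples (2 breeds, 2 depots, 3 samples in each of 4 groups) was hybridised to an Affymetrix bovine array, 1 colour. The authors deposited 1 table of processed values, an intensity per probe set on a linear scale; per the submitters' processing notes GCOS 1.1.1 and Affymetrix Expression Console 1.1 were used, and neither the summarisation nor the normalisation is given in the sources used here. Of 24128 probe sets 112 controls were left out. The deposited intensities were put on a log2(signal + 16) scale and quantile normalised, and the 30% of probe sets with the lowest mean were dropped, which left 16811. Group means were fitted to all 12 samples with limma 3.58.1 (lmFit and eBayes) in R 4.3.3, which shares 1 estimate of the spread between breeds, with Benjamini-Hochberg adjustment and a threshold of 0.05. The procedure was tested on simulated data. No covariate was used. The replicate numbers do not pair the samples: HS IMF holds numbers 1 to 3 and HS SCF 4 to 6.

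Gene symbols came from the platform annotation, updated through Entrez identifiers to RefSeq: 13292 of 24016 probe sets had 1 symbol, 86 several and 10638 none. No coordinates or sequences are given, since no genome was used here. Lists were read through each gene's brightest probe set. The comparison and the 30 gene lists were chosen with earlier results of these data known, and list counts are descriptions without a list test. Named genes were the 15 largest increases, the 15 largest decreases and the 15 largest increases outside the muscle lists, among called genes without overlap between depots each read through its most changed probe set, up to 6 members of each list with the smallest p, and, for the difference between breeds, 5 genes a direction by p; probe sets of the first 3 kinds that differed in sign or call are given. FABP4, ADIPOQ, PPARG, LEP, CIDEA, ACSS2, ACACA, FASN, SCD, PECAM1, CDH5, RGS5, PDGFRB, SELE, CSF1R, CD68, CD3E, CCL2, FOS, DUSP1, PGAM2, ACTA1, TNNC2, TNNI2 and PYGM fall outside this rule and were chosen after their values were seen. Alternatives covered the dim filter, scaling, pseudocount, variance prior, array weights, probe set choice, a test against 1.2-fold, the 6 Holstein samples alone, a replicate block and each sample left out; leaving out HS IMF 3 with HS SCF 5 or HS SCF 4 was added after the data were seen. Figures were drawn with matplotlib 3.10.9.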

Additional observations from a re-analysis of the deposited data

Results flagged for a closer look

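In 3 genes among the 10 named for the difference between the breeds, all 3 normalised intramuscular values lay on one side of the subcutaneous ones in Holstein and on the other side in Japanese Black. The 10 genes were picked by a small p for that difference, which favours such an opposite order. The share of all probe sets with it is not given here. MARCKSL1, a regulator of the actin cytoskeleton, had a depot difference 2.24 larger in Holstein than in Japanese Black on the log2 scale. RGS16, a regulator of G protein signalling, had one 1.77 larger. Its signals were low and overlapped as deposited, at 53.2, 111 and 53.6 in intramuscular and 20.9, 26.4 and 54.1 in subcutaneous fat of Holstein. NDUFS3, a subunit of respiratory complex I, had one of −1.86 relative to Japanese Black. The probe set was dim in Holstein, at 35.5, 36.2 and 7.95 against 156, 60.6 and 60.7, a depot difference of −1.29. It was not the brightest of the gene: among the 49 respiratory chain genes, read through the brightest, no difference was below −1.04. The difference itself was tested for all 3 and did not pass in limma with Benjamini-Hochberg adjustment over all probe sets (adjusted p = 0.932, 0.990 and 0.990).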

How the results depend on the processing

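Against 304 higher and 255 lower probe sets, array weights gave 155 and 31, the 6 Holstein samples alone 128 and 23, the values as deposited 400 lower, and the test against 1.2-fold 86 lower. Leaving out 1 sample of any group gave 150 to 486 higher and 42 to 621 lower. The 2 alternatives chosen after seeing the data, without HS IMF 3 and HS SCF 5 and without HS IMF 3 and HS SCF 4, gave 52 and 131 lower. For the difference between the breeds the count was 0 to 1 over single samples left out, 1 without HS IMF 3 and HS SCF 4, and 0 with the replicate block, where 290 probe sets had an unadjusted p under 0.05 and the smallest adjusted p was 0.999. The block applies to that test only, since HS IMF and HS SCF share no replicate number, and same-numbered samples of the breeds did not deviate together (correlations from −0.28 to 0.12). Across all alternatives the named genes gave 4930 values with the same call, 380 that lost it, 56 that gained it and 0 that changed sign past the threshold. With 3 samples a depot, unequal spread between the Holstein samples and no detection calls used here, genes near 0 have only approximate differences, and a p that misses the threshold does not show that the depots are alike. The cause of these changes was not tested.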
